A study of Mus musculus with 15 samples.

Results

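The tissue inhibitors of metalloproteinases (TIMPs) are secreted proteins that block the enzymes which cut the extracellular matrix. Their genes were read in RNA sequencing of primary mouse lung fibroblast cultures, by the gene name given in the files. Of the 4 names searched, Timp1, Timp2, Timp3 and Timp4, 3 had a row among the 18078 genes, and Timp4 is not analysed here. The cultures came from wild-type mice of the strain BALB/cJ and were taken 20 h after stimulation. The libraries fell into 5 groups of 3: cells given IL-33, IL-13 and IL-17A together (IL-33/13/17A), cells given IL-33 and IL-13 (IL-33/13), cells given IL-33 and IL-17A (IL-33/17A), cells given IL-33 alone, and untreated cells. IL-33 is released by injured epithelium, IL-13 acts through the factor STAT6 and drives allergic and fibrotic responses, and IL-17A drives responses that recruit neutrophils. All groups share the strain, the cell source and the time. The labels give no animal, culture or batch, so the p-values below rest on the spread among libraries of a group, and this spread may be technical.

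TIMPs bind the active site of matrix metalloproteinases (MMPs) and hold it shut, and the members differ in their other partners. TIMP1 is a soluble inhibitor induced by inflammatory and growth factor signals, weak against membrane-bound MMPs, and is known to bind the tetraspanin CD63 at the cell surface. TIMP2 is made by most connective tissue cells at a steady level, and besides inhibiting MMPs it links pro-MMP2 to the membrane protease MMP14, the step at which pro-MMP2 is activated. TIMP3 stays bound to the matrix and also inhibits the sheddase ADAM17 and the aggrecanases ADAMTS4 and ADAMTS5. In lung, TIMP1 is known from fibrosis and inflammation, and mice that lack Timp3 develop enlarged airspaces.

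Timp1 (ENSMUSG00000001131) lies on chromosome X, 20870166 to 20874735 on the plus strand of mm10. It sits inside the synapsin gene Syn1, which runs the other way, and their annotated exons share 0 bases. Timp2 (ENSMUSG00000017466) lies on chromosome 11, 118301069 to 118355740 on the minus strand, and holds the small gene Cep295nl on the same strand, again with 0 shared exon bases. Timp3 (ENSMUSG00000020044) lies on chromosome 10, 86300372 to 86349506 on the plus strand, inside Syn3 on the opposite strand. There 1733 exon bases are shared. Use of strand in counting is not given in the sources used here, so reads from these bases cannot be assigned to one of the genes. The host and nested genes were low: Syn1 ranged over the libraries between 2.27 and 3.94 TPM, Cep295nl between 2.19 and 4.97 TPM and Syn3 between 0.00248 and 0.0390 TPM. TPM is the authors' unit, a read number divided by a gene length and scaled to a fixed total per library.

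The promoters are shown because the genes moved in opposite directions after the same cytokines. Each window is 300 bases, 250 before and 50 after the start site in RefSeq (GRCm38.p6), and all 3 genes were found in the RefSeq promoter table. Capitals mark 3 motifs on either strand: an AP-1 variant (TGAGTAA), a PEA3/ETS core (AGGAAG) and a GC box (GGGCGG, or CCGCCC on the other strand).
Timp1 promoter, chrX:20869916-20870215, plus strand: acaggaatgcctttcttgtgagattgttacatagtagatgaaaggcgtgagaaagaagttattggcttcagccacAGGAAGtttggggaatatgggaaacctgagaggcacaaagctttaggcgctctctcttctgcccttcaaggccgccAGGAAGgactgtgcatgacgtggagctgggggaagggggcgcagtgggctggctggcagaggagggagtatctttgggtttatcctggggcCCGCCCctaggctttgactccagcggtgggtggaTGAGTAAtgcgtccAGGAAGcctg
Timp2 promoter, chr11:118355362-118355661, minus strand: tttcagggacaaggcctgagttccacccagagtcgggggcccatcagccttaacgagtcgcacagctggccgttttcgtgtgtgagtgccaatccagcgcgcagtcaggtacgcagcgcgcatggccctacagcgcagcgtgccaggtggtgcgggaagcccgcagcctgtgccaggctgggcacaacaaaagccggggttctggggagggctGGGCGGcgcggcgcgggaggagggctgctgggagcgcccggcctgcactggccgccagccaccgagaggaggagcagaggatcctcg
Timp3 promoter, chr10:86300162-86300461, plus strand: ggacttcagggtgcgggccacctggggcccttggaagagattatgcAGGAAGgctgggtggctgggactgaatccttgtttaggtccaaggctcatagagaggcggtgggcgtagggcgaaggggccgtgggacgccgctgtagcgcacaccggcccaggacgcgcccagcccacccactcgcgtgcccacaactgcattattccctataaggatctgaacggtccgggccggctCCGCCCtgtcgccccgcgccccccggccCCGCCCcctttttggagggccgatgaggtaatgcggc

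Counted from the start site as base 1, the Timp1 window held the AP-1 variant at 27, AGGAAG at -175, -99 and 41, and a GC box at -8. The Timp2 window held 1 GC box, at -37, and the Timp3 window held AGGAAG at -204 and GC boxes at -15 and 14. Among 32851 promoter windows of the same length, 2.68% held the AP-1 variant, 35.4% AGGAAG and 35.7% the GC box. Also searched on both strands were the AP-1 consensus (TGANTCA, in 7.81% of windows), the STAT motif (TTCNNNGAA, 8.30%), the STAT6 motif (6.95%), the TATA box (TATAAA, 13.6%), the NF-kB consensus (8.46%) and the CArG box (1.63%). These letters were not in the 3 windows. No marked motif overlapped another. A match describes the sequence and does not show a bound site.

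Each library had between 12854 and 13159 genes at 1 TPM or more. TPM was found to be scaled by the whole gene span, introns included. Multiplied by the span, 92.2% to 93.9% of the low values tested in each library came out as whole reads within a tolerance of 0.03, against 7.18% to 7.73% with exon length. Reads rebuilt in this way came to 10535853 to 15065375 per library. They gave 4832 to 18508 reads for Timp1, 17037 to 23696 for Timp2 and 1658 to 17167 for Timp3. Fibroblast markers (10 genes) summed to 9791 to 16062 TPM in the libraries. The 11 macrophage markers summed to 15983 to 18195 TPM, so macrophage RNA was present in the cultures too. With TPM scaled by gene span, sums of different marker sets do not show which cell type gave more RNA. Epithelial and endothelial markers stayed at or under 3.49 and 3.03 TPM. In 6 libraries the 13 mitochondrially encoded genes held 3.50% to 3.87% of the summed TPM, and in the remaining 9 they held 4.77% to 6.13%. These 6 were all 3 IL-33/13 libraries, IL-33/17A replicates 2 and 3 and IL-33/13/17A replicate 1. This low mitochondrial set is not a labelled batch, and no untreated or IL-33 library belongs to it. Several TIMP results that rest on it are given below also with a term for the set in the fit or without its libraries. The changes of the protease, inhibitor and partner lists are given without either.

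The question put to each gene was how it answered each cytokine condition and what IL-13 or IL-17A added. Log2 changes are of TPM + 1, from limma fitted to all 15 libraries, with their standard error (SE) and a p adjusted by the Benjamini-Hochberg method over 13887 tested genes. An adjusted p under 0.05 counted as a call. All 3 TIMP genes passed the filter on low values. Timp3 was called in 9 of the 9 comparisons, Timp2 in 8 and Timp1 in 5. Against untreated cells, all 3 were called in each cytokine condition, where 42.7% of all tested genes were called with IL-33/13/17A, 49.6% with IL-33/13, 37.7% with IL-33/17A and 14.2% with IL-33. At such shares a call alone says little, so the sizes and single values follow.

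Timp3, the matrix-bound inhibitor, fell under every cytokine condition and fell furthest where IL-33, IL-13 and IL-17A were combined. It measured 30.9, 33.2 and 34.2 TPM in the IL-33/13/17A libraries, 57.8, 59.3 and 59.2 TPM with IL-33/13, and 59.3, 50.1 and 52.6 TPM with IL-33/17A. It measured 157, 163 and 168 TPM with IL-33 alone and 344, 370.2 and 372 TPM in untreated cells. The untreated, IL-33 and IL-33/13/17A libraries formed separate steps with no overlap, while the IL-33/13 and IL-33/17A libraries overlapped between them. Less Timp3 RNA per cell and fewer Timp3-expressing cells cannot be told apart in these bulk cultures.

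Against untreated cells, Timp3 was 10.7-fold lower with IL-33/13/17A (log2 change -3.43 ± 0.06 SE, limma adjusted p = 2.39e-13). It was 6.07-fold lower with IL-33/13 (-2.60, adjusted p = 5.61e-12), 6.61-fold lower with IL-33/17A (-2.72, adjusted p = 3.6e-12) and 2.22-fold lower with IL-33 (-1.15, adjusted p = 4e-08). With IL-33/13/17A it had the lowest log2 change of the 13887 tested genes, also after median-ratio scaling, and was at rank 24 with a pseudocount of 0.1 and rank 8 by voom on rebuilt reads. With the term for the low mitochondrial set the changes were -3.37 for IL-33/13/17A, -2.44 for IL-33/13, -2.61 for IL-33/17A and -1.15 for IL-33, and all stayed called. The libraries outside the set alone gave -3.38 with IL-33/13/17A and -2.59 with IL-33/17A.

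**Figure D1:**
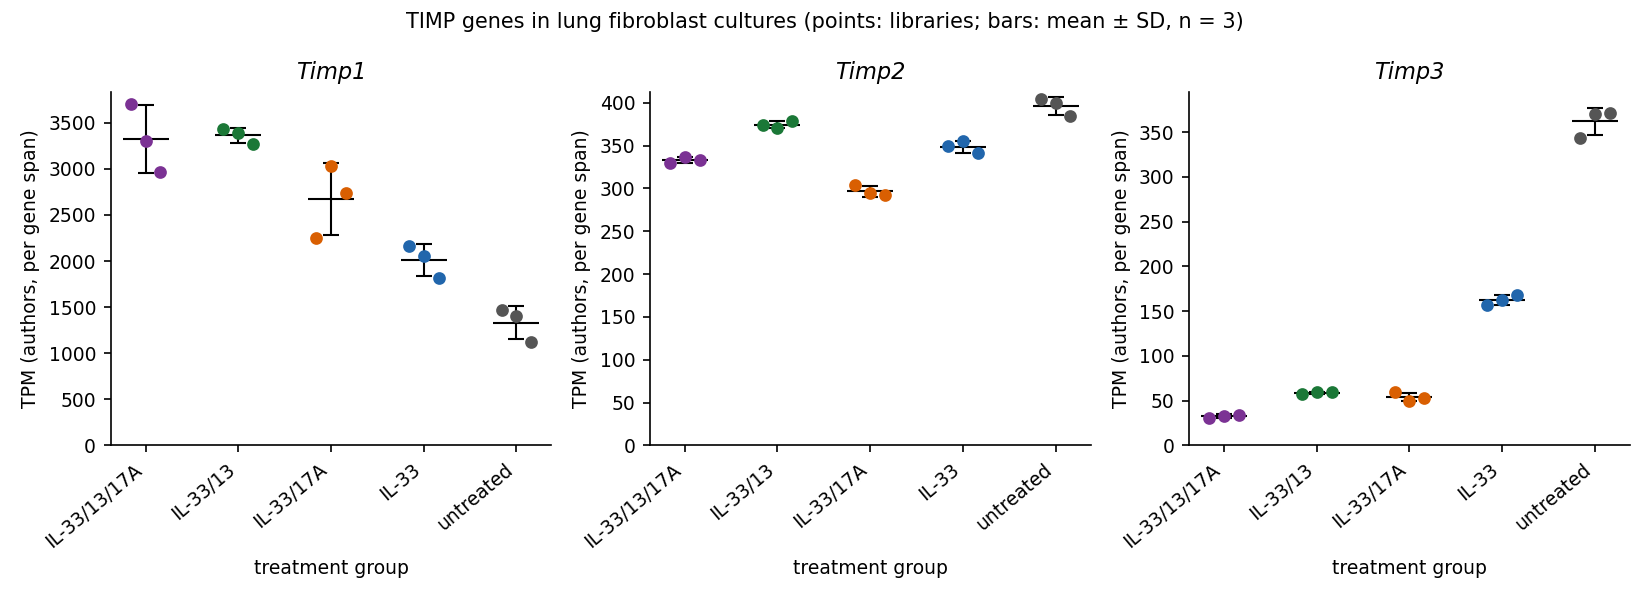
TPM of Timp1, Timp2 and Timp3 (y axis, from 0, scaled by gene span) in the 5 treatment groups (x axis). Points are libraries, and bars are the mean ± SD of 3. Timp1 stands highest in the IL-13 groups and lowest in untreated cells, Timp2 stays between 292 and 404 TPM, and Timp3 steps down to 30.9 to 34.2 TPM in IL-33/13/17A cells, against 344 to 372 TPM in untreated cells.

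Each added cytokine was followed by a lower Timp3 level. IL-17A added to IL-33 gave a log2 change of -1.57 ± 0.06 (limma adjusted p = 9.37e-09), in a comparison where 9.76% of all genes were called, and IL-13 added to IL-33 gave -1.45 ± 0.06 (limma adjusted p = 7.82e-09), where 32.4% were called. IL-17A added to IL-33/13 gave -0.82 ± 0.06 (limma adjusted p = 4.25e-06, 7.45% of all genes called), and IL-13 added to IL-33/17A gave -0.70 ± 0.06 (limma adjusted p = 7.49e-06, 15.8% called). All 4 stayed called with the set term, at -1.47 for IL-17A on IL-33, -1.29 for IL-13 on IL-33, -0.93 for IL-17A on IL-33/13 and -0.76 for IL-13 on IL-33/17A. Either cytokine thus moved Timp3 less where the other was present. That difference, the IL-13 by IL-17A interaction under IL-33, was 0.75 ± 0.08 on the log2 scale (SE, limma adjusted p = 0.00294), and 0.338% of all genes were called in it. The interaction did not stay called with the set term, at 0.53 (limma adjusted p = 0.0734).

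Markers of smooth muscle and pericytes moved with Timp3. The 4 markers Myh11, Cspg4, Rgs5 and Mcam summed to 20.7 to 22.7 TPM with IL-33/13/17A, 34.5 to 36.3 with IL-33/13, 31.7 to 33.6 with IL-33/17A, 55.1 to 63.2 with IL-33 and 106 to 115 TPM in untreated cells. The 3 of them that were tested fell in all 8 pairwise comparisons, with a median log2 change of -2.18 for IL-33/13/17A against untreated. Over these 8 comparisons, 7.45% to 49.6% of all tested genes were called in either direction. In the interaction, where Timp3 was called, 0 of the 3 were called by limma, 1 had an unadjusted p under 0.05 and 1 was called by voom. Over all genes, limma called 0.338% in the interaction and voom called 1402 of 13887. An unadjusted p under 0.05 was common, but its share over all genes was not counted. Fibroblast markers (10 genes) were lower too, with mean sums of 10032 TPM with IL-33/13/17A, 11408 with IL-33/13, 12349 with IL-33/17A, 13679 with IL-33 and 15576 TPM in untreated cells. With IL-33/13/17A against untreated, 2 of the 10 rose and 8 fell, with a median log2 change of -0.46. Of all tested genes, 1755 rose and 4178 fell there (42.7% called), with a median of -0.10. The 11 macrophage markers had mean sums of 16328 TPM with IL-33/13/17A, 16454 with IL-33/13, 17457 with IL-33/17A, 17231 with IL-33 and 17682 TPM in untreated cells. With IL-33/13/17A against untreated, 4 of the 11 rose and 5 fell, with a median log2 change of -0.05. The neuron markers (4 genes, 1 tested) had mean sums of 6.51 TPM with IL-33/13/17A, 8.45 with IL-33/13, 6.43 with IL-33/17A, 10.5 with IL-33 and 20.7 TPM in untreated cells. The 3 mesothelial markers had mean sums of 11.3 TPM with IL-33/13/17A, 12.2 with IL-33/13, 10.4 with IL-33/17A, 12.9 with IL-33 and 18.8 TPM in untreated cells. Only 1 of these 3 was called lower in each comparison with untreated cells, and their median log2 change was -0.27 with IL-33/13/17A. The all-gene shares called against untreated were 42.7% with IL-33/13/17A, 49.6% with IL-33/13, 37.7% with IL-33/17A and 14.2% with IL-33. The part of these cell types in the Timp3 result was not tested.

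Timp1, the inducible soluble inhibitor, moved the other way. It measured 3705, 3299.6 and 2964 TPM in the IL-33/13/17A libraries, 3436, 3387 and 3271 TPM with IL-33/13, and 2248, 3026 and 2742 TPM with IL-33/17A. It measured 2161, 2059 and 1817 TPM with IL-33 and 1466, 1406 and 1125 TPM in untreated cells. No cytokine-treated library was as low as an untreated one, and the IL-33/13/17A and IL-33/13 libraries overlapped. Replicates spread more than for the other members, with a coefficient of variation of up to 14.7% in the IL-33/17A group, against at most 2.62% for Timp2 in any group.

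Timp1 was 2.50-fold higher with IL-33/13/17A than in untreated cells (log2 change 1.32 ± 0.12 SE, limma adjusted p = 2.77e-06) and 2.54-fold higher with IL-33/13 (1.34, adjusted p = 3.14e-06). It was 2.003-fold higher with IL-33/17A (1.002, adjusted p = 4.74e-05) and 1.52-fold higher with IL-33 (0.60, adjusted p = 0.00534). The lowest values over all alternatives were 1.20 with IL-33/13/17A, 1.04 with IL-33/13, 0.76 with IL-33/17A and 0.48 with IL-33. Timp1 stayed called in all of them. IL-13 added to IL-33 raised it by 0.74 ± 0.12 on the log2 scale (limma adjusted p = 0.000973), but by 0.44 with the set term, which was not called (adjusted p = 0.0724). The addition of IL-17A to IL-33 gave 0.40 ± 0.12 (limma adjusted p = 0.0625). Without IL-33/17A replicate 1, the lowest library of its group, this was 0.52 and was called (limma adjusted p = 0.0118). The IL-33/17A libraries then left all lie in the low mitochondrial set, and no IL-33 library does. Over all alternatives the value ran from 0.16 to 0.52, and it stayed uncalled in 13 of 14.

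Once IL-13 was present, IL-17A made no detectable difference to Timp1. IL-33/13/17A against IL-33/13 gave -0.02, with a 95% interval of -0.29 to 0.24 (limma adjusted p = 0.932). IL-33/13/17A against IL-33/17A gave 0.32, with an interval of 0.05 to 0.59 (limma adjusted p = 0.108), and with the set term 0.42, which was called (limma adjusted p = 0.0155). The interaction was -0.43 ± 0.17 (limma adjusted p = 0.149), reached -0.54 without IL-33/17A replicate 1 (limma adjusted p = 0.0347), and was -0.02 with the set term. In the groups with libraries on both sides of the low mitochondrial set, Timp1 was highest in a library inside it, with 3705 TPM in IL-33/13/17A replicate 1 and 3026 TPM in IL-33/17A replicate 2. For IL-33/13 the part of the set cannot be told apart from that of IL-13, since all IL-33/13 libraries lie inside it. Outside the set, IL-33/13/17A replicates 2 and 3 were at 3299.6 and 2964 TPM, against 2248 TPM in IL-33/17A replicate 1.

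Timp2, the partner of MMP14 and pro-MMP2, changed little, but its replicates were so close that small shifts were called. It measured 330.2, 337 and 333 TPM in the IL-33/13/17A libraries, 374, 371 and 379 TPM with IL-33/13, and 304, 294 and 292 TPM with IL-33/17A. It measured 350.0, 355 and 341 TPM with IL-33 and 404, 400.0 and 385 TPM in untreated cells. On TPM, every IL-33/17A library was under every other library, and every untreated library was above all treated ones. As RPKM over mRNA length, the scale explained below, the IL-33/13 libraries (500.4 to 508.5) were above the untreated ones (465.5 to 496.6).

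Timp2 was 1.33-fold lower with IL-33/17A than in untreated cells (log2 change -0.42 ± 0.03 SE, limma adjusted p = 1.96e-07) and 1.19-fold lower with IL-33/13/17A (-0.25, adjusted p = 1.63e-05). It was 1.14-fold lower with IL-33 (-0.18, adjusted p = 0.000699), a call lost after median-ratio scaling (-0.13, adjusted p = 0.0547). With IL-33/13 the change was -0.08 (limma adjusted p = 0.0308), which turned to 0.07 after median-ratio scaling and to 0.06 by voom on rebuilt reads, neither of them called, so it has no settled direction. Median-ratio scaling moved the median of all genes from -0.12 to 0.01 for IL-33/13 against untreated, from -0.10 to 0.01 for IL-33/13/17A and from -0.09 to 0.01 for IL-33/17A. This shift is larger than the Timp2 change with IL-33/13. It is small beside the changes of Timp1 and Timp3, which kept their direction and their calls against untreated cells under it.

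Timp2 moved in opposite directions with IL-17A and with IL-13. IL-17A lowered it on IL-33 (-0.23 ± 0.03, limma adjusted p = 0.000199) and on IL-33/13 (-0.17 ± 0.03, limma adjusted p = 0.00351). IL-13 raised it on IL-33 (0.10 ± 0.03, limma adjusted p = 0.0166) and on IL-33/17A (0.17 ± 0.03, limma adjusted p = 0.0016). All 4 stayed called with the set term and with median-ratio scaling, but each lost its call elsewhere. That was so for IL-17A on IL-33 outside the set (limma adjusted p = 0.0729), for IL-17A on IL-33/13 inside the set (0.0736), for IL-13 on IL-33 without IL-33 replicate 3 (0.0664) or without IL-33/13 replicate 3 (0.0595), and for IL-13 on IL-33/17A outside the set (0.123), inside it (0.0514) and with only the compared groups (0.0609). The interaction was 0.07 ± 0.04 (limma adjusted p = 0.303), with an interval of -0.02 to 0.15, and its sign turned under median-ratio scaling.

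**Figure D2:**
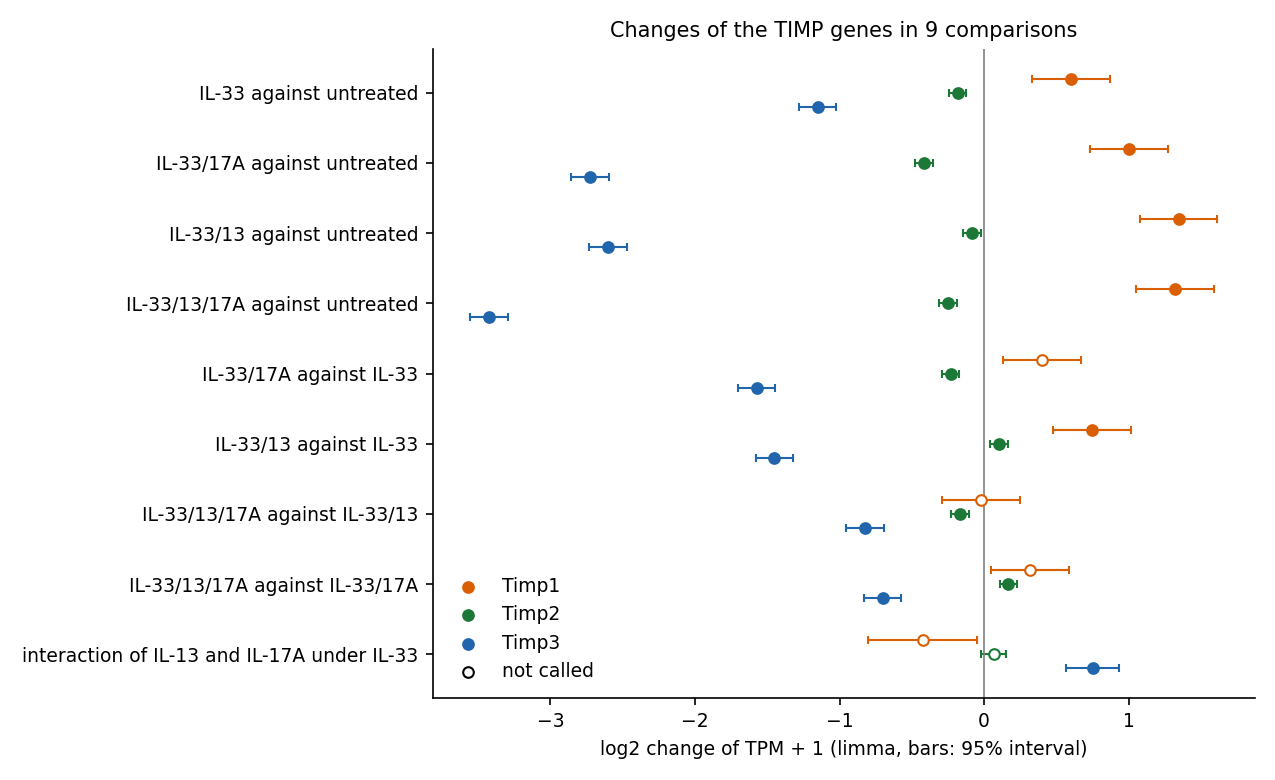
Log2 change of TPM + 1 (x axis) of Timp1, Timp2 and Timp3 in the 9 comparisons (y axis), from limma on 15 libraries. Points are estimates, bars are 95% intervals, and open points were not called at an adjusted p under 0.05. Timp3 lies left of 0 in all 8 pairwise comparisons, down to -3.43, Timp1 lies right of 0 in each comparison with untreated cells, up to 1.34, and Timp2 stays between -0.42 and 0.17.

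To compare the members with each other, the rebuilt reads were divided by the length of the longest coding mRNA of each gene, 883 bases for Timp1, 3709 for Timp2 and 4722 for Timp3 and by the library's read total. On this scale, RPKM over mRNA length, Timp1 was above Timp2 and Timp2 above Timp3 in 15 of 15 libraries. The level of Timp1 averaged 1562 ± 203 with IL-33/13/17A, 1590.3 ± 43.3 with IL-33/13, 1241 ± 207 with IL-33/17A, 898 ± 92.3 with IL-33 and 573 ± 83.0 in untreated cells (SD, n = 3 each). The level of Timp2 averaged 446 ± 5.86 with IL-33/13/17A, 504 ± 4.09 with IL-33/13, 392 ± 2.49 with IL-33/17A, 443 ± 14.8 with IL-33 and 485 ± 16.9 in untreated cells. That of Timp3 averaged 30.9 ± 1.09 with IL-33/13/17A, 55.8 ± 0.797 with IL-33/13, 50.3 ± 3.31 with IL-33/17A, 145 ± 3.02 with IL-33 and 313 ± 12.6 in untreated cells. The 3 genes lay furthest apart with IL-33/13/17A and closest together in untreated cells.

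Ranked on the same scale among 18062 genes, Timp1 was at rank 6 with IL-33/13/17A and at rank 45 in untreated cells. Timp3 was at rank 2534 with IL-33/13/17A and at rank 136 in untreated cells, and Timp2 was at rank 88 with IL-33/13/17A and at rank 64 in untreated cells. Timp1 per Timp3 came to 50.7 ± 8.40 with IL-33/13/17A, 28.5 ± 1.03 with IL-33/13, 24.9 ± 5.65 with IL-33/17A, 6.18 ± 0.750 with IL-33 and 1.84 ± 0.311 in untreated cells. Of the summed TIMP level, Timp3 held 1.53% ± 0.206 with IL-33/13/17A, 2.60% ± 0.0734 with IL-33/13, 3.03% ± 0.590 with IL-33/17A, 9.83% ± 0.886 with IL-33 and 22.9% ± 2.16 in untreated cells. Timp1 held 76.5% with IL-33/13/17A and 41.7% in untreated cells. Timp2 held 19.97% to 23.8% over the IL-33/13/17A libraries, and on average 23.4% with IL-33/13, 23.5% with IL-33/17A, 29.8% with IL-33 and 35.4% in untreated cells. The ranges of the Timp3 share did not overlap between IL-33/13/17A, IL-33 and untreated cells, and those of IL-33/13 and IL-33/17A overlapped. The sizes of these ratios and shares depend on the length chosen. Over all annotated exons merged (8144 bases for Timp3), Timp3 in untreated replicate 1 was at 173, against 298 over mRNA length. Timp1 there was at 629, against 632. The order of the 3 genes held in 15 of 15 libraries with either length.

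**Figure D3:**
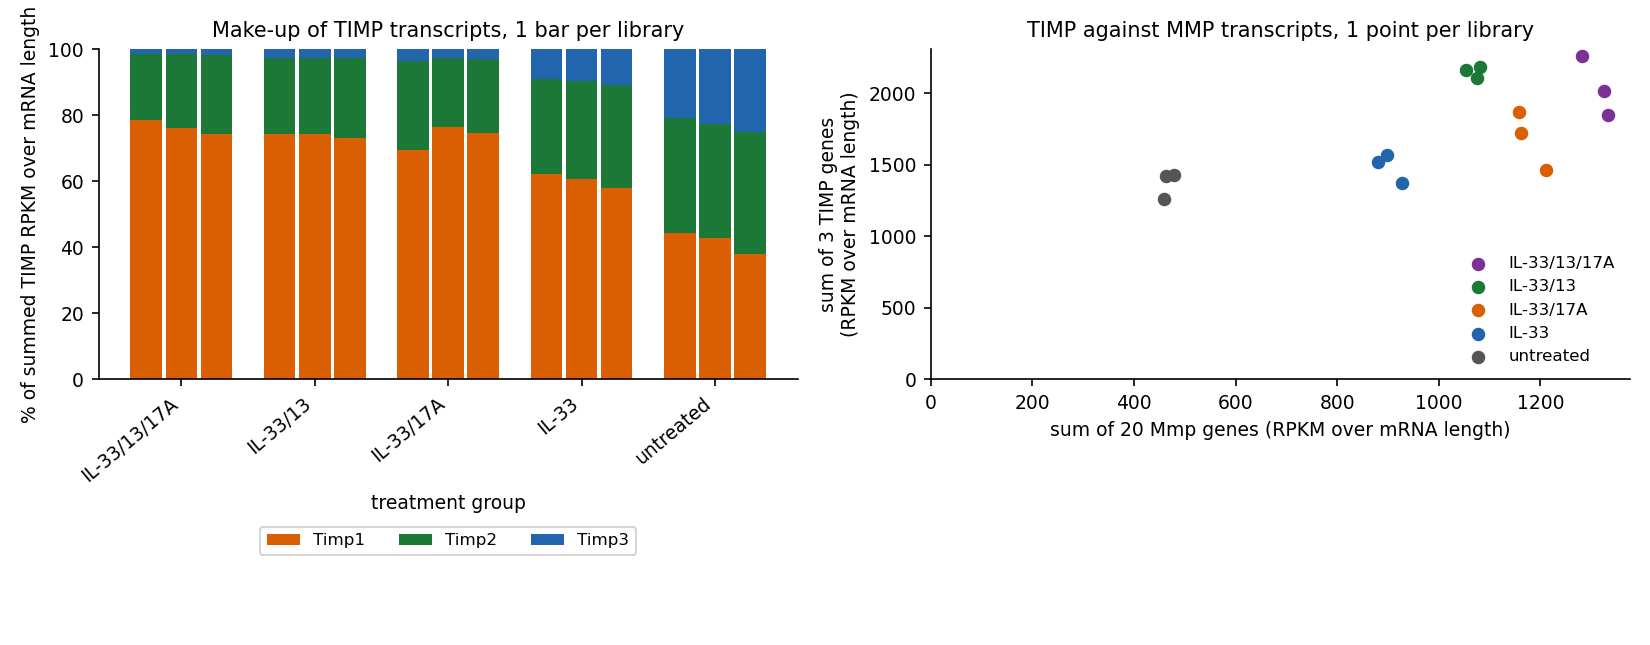
Left, share of the summed TIMP level (y axis, % of RPKM over mRNA length) held by each gene, 1 bar per library, by treatment group (x axis). Right, sum of the 3 TIMP genes (y axis) against the sum of 20 Mmp genes (x axis), both as RPKM over mRNA length, 1 point per library. Timp3 shrinks to 1.32% to 1.73% of the bar in IL-33/13/17A cells, against 20.9% to 25.2% in untreated cells, and the untreated libraries lie farthest left, at MMP sums of 460 to 479.

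The MMP genes, the main targets of TIMPs, were set beside them. The summed level of the 3 TIMP genes averaged 2039 RPKM over mRNA length with IL-33/13/17A, 2150.1 with IL-33/13, 1683 with IL-33/17A, 1486 with IL-33 and 1370.2 in untreated cells. That of the 20 Mmp genes in the files averaged 1313 with IL-33/13/17A, 1069 with IL-33/13, 1177 with IL-33/17A, 902 with IL-33 and 468 in untreated cells. The ratio of TIMP to MMP transcripts was 1.56 (range 1.38 to 1.76) with IL-33/13/17A, 2.01 (1.96 to 2.05) with IL-33/13, 1.43 (1.21 to 1.61) with IL-33/17A, 1.65 (1.47 to 1.75) with IL-33 and 2.93 (2.74 to 3.07) in untreated cells. All untreated libraries were above all treated ones, and among treated cells the IL-33/13 libraries, all in the low mitochondrial set, were above the rest. In the mixed groups the ratio was higher inside the set, at 1.76 inside against 1.52 and 1.38 outside with IL-33/13/17A, and at 1.61 and 1.48 inside against 1.21 outside with IL-33/17A, so the standing of IL-33/13 and the set cannot be told apart. These are ratios of transcripts, not of protein or activity, and the part of the macrophage RNA in either sum was not tested.

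Of 15 tested Mmp genes, 7 rose and 5 fell with IL-33/13/17A against untreated cells, 6 and 5 with IL-33/13, 7 and 5 with IL-33/17A, and 6 and 3 with IL-33. The median log2 change of the list was 0.25 with IL-33/13/17A, 0.12 with IL-33/13, 0.20 with IL-33/17A and 0.18 with IL-33. Over all tested genes it was -0.10 with IL-33/13/17A, -0.12 with IL-33/13, -0.09 with IL-33/17A and -0.05 with IL-33. Of all tested genes, 1755 rose and 4178 fell with IL-33/13/17A (2842 and 2568 after median-ratio scaling), 2017 and 4870 with IL-33/13 (3384 and 3014), 1486 and 3743 with IL-33/17A (2469 and 2173), and 822 and 1150 with IL-33 (1109 and 851). The rises were carried by the gelatinase gene Mmp9, the stromelysin genes Mmp3 and Mmp10 and the collagenase gene Mmp13. Mmp3, the highest of them, averaged 979 ± 33.8 TPM with IL-33/13/17A, 666 ± 23.4 with IL-33/13, 992 ± 26.8 with IL-33/17A, 607 ± 50.8 with IL-33 and 69.3 ± 5.87 TPM in untreated cells. With IL-33/13/17A against untreated, the log2 changes were 4.99 for Mmp9, 4.12 for Mmp10, 3.80 for Mmp3 and 3.59 for Mmp13 (limma adjusted p between 2.54e-15 and 2.79e-12). Mmp12, the macrophage elastase gene, rose by 2.67.

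The genes of the TIMP2 complex did not follow these. Mmp14, the membrane protease, averaged 390.1 ± 19.7 TPM with IL-33/13/17A, 505 ± 0.329 with IL-33/13, 481 ± 10.9 with IL-33/17A, 601 ± 19.6 with IL-33 and 629 ± 18.0 TPM in untreated cells. It fell by 0.69 with IL-33/13/17A against untreated, by 0.32 with IL-33/13 and by 0.39 with IL-33/17A, and was not called with IL-33 (-0.06, limma adjusted p = 0.322). The change with IL-33/13 was -0.16 after median-ratio scaling and -0.18 by voom, still called. Mmp2, the substrate, was not called against untreated cells on TPM, with log2 changes between -0.09 and 0.10. After median-ratio scaling it was called higher with IL-33/17A (0.22, limma adjusted p = 0.000886) and with IL-33 (0.15, limma adjusted p = 0.0205), and voom called both too. The glycosylphosphatidylinositol-anchored Mmp17 fell by 1.36 with IL-33/13/17A and the stromelysin-3 gene Mmp11 by 1.08.

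When IL-17A was added to IL-33, 4 Mmp genes rose and 2 fell, led by Mmp9 (1.25), Mmp10 (0.75) and Mmp3 (0.71), with Mmp17 at -0.52. When IL-13 was added to IL-33, 4 rose and 6 fell, or 6 and 2 after median-ratio scaling, led by Mmp13 (1.06), Mmp10 (0.44) and Mmp12 (0.40), with Mmp23 at -0.38. IL-17A added to IL-33/13 raised 5 and lowered 2, with Mmp9 at 1.08, Mmp3 at 0.55, Mmp10 at 0.54 and Mmp12 at 0.50. IL-13 added to IL-33/17A raised 2 and lowered 4, with Mmp13 at 1.14 and Mmp12 at 0.63, and Mmp23 at -0.41 and Mmp11 at -0.34. Of all genes, 491 rose and 864 fell (9.76% called) for IL-17A on IL-33. For IL-13 on IL-33, 1395 and 3111 did (32.4%), or 2307 and 2048 after median-ratio scaling. For IL-17A on IL-33/13 it was 472 and 562 (7.45%), and for IL-13 on IL-33/17A 930 and 1269 (15.8%). The Mmp list's median log2 change was 0.01 for IL-17A on IL-33 (all genes -0.05), -0.06 for IL-13 on IL-33 (all genes -0.08), 0.03 for IL-17A on IL-33/13 (all genes 0.01) and -0.02 for IL-13 on IL-33/17A (all genes -0.02). In the interaction, 0 of 15 were called by limma, and 1 had an unadjusted p under 0.05. Voom on rebuilt reads called 3, all with negative values. Over all genes limma called 0.338%, and voom called 1402 of 13887. A low unadjusted p was common over all genes: for Mmp9 a limma p of 0.0256 had an adjusted p of 0.138. The share of all genes at an unadjusted p under 0.05 was not counted.

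Of the ADAM and ADAMTS proteases, 19 were tested. Against untreated cells, 5 rose and 10 fell with IL-33/13/17A, 5 and 10 with IL-33/13 (8 and 9 after median-ratio scaling), 5 and 9 with IL-33/17A, and 4 and 6 with IL-33. Their median log2 change was -0.16 with IL-33/13/17A, -0.32 with IL-33/13, -0.15 with IL-33/17A and -0.09 with IL-33, and the all-gene medians were -0.10 with IL-33/13/17A, -0.12 with IL-33/13, -0.09 with IL-33/17A and -0.05 with IL-33. With IL-33/13/17A the split of 5 rises and 10 falls stood beside 1755 rises and 4178 falls over all genes, and with IL-33/13 beside 2017 and 4870. The aggrecanase genes, both targets of TIMP3, parted. Adamts4 averaged 152 ± 6.16 TPM with IL-33/13/17A, 66.0 ± 2.23 with IL-33/13, 152 ± 4.87 with IL-33/17A, 73.7 ± 4.20 with IL-33 and 39.6 ± 1.02 TPM in untreated cells. Adamts5 averaged 19.2 ± 1.14 TPM with IL-33/13/17A, 21.4 ± 0.710 with IL-33/13, 24.3 ± 0.797 with IL-33/17A, 34.3 ± 1.30 with IL-33 and 46.6 ± 0.150 TPM in untreated cells. With IL-33/13/17A against untreated, Adamts4 rose by 1.92 and Adamts5 fell by 1.24 (limma adjusted p = 7.42e-12 and 4.25e-10).

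Adam17, the sheddase inhibited by TIMP3, moved little. It fell by 0.32 with IL-33/13 against untreated (limma adjusted p = 0.000901) and by 0.18 after median-ratio scaling (adjusted p = 0.0115), and its changes with IL-33/17A (-0.11) and IL-33 (-0.09) were not called. With IL-33/13/17A its change of -0.16 lay at the threshold (limma adjusted p = 0.04996) and was not called after median-ratio scaling (-0.03, adjusted p = 0.648). Adamts7, which cleaves cartilage oligomeric matrix protein, rose in all 4 conditions, by 1.08 with IL-33/13/17A and by 1.48 with IL-33/17A, and Adamts2, a procollagen N-proteinase, fell in all 4, by 0.99 with IL-33/13/17A. IL-17A added to IL-33 raised 3 of the list and lowered 7, and IL-13 added to IL-33 raised 3 and lowered 11 (6 and 9 after median-ratio scaling). On IL-33/13, IL-17A raised 3 and lowered 2 (3 and 4 after median-ratio scaling), with Adamts4 at 1.19. IL-13 added to IL-33/17A raised 5 and lowered 6. Of all genes, 491 rose and 864 fell (9.76% called) for IL-17A on IL-33. For IL-13 on IL-33, 1395 and 3111 did (32.4%), or 2307 and 2048 after median-ratio scaling. For IL-17A on IL-33/13 it was 472 and 562 (7.45%), or 588 and 580 scaled, and for IL-13 on IL-33/17A 930 and 1269 (15.8%). In the interaction 1 gene was called, Adamts12 at 0.47 (limma adjusted p = 0.0404), and 6 of 19 had an unadjusted p under 0.05. Voom called 3, of which 2 were positive and 1 negative. Over all genes limma called 0.338%, and voom called 1402 of 13887. A low unadjusted p was common over all genes: for Adamts4 a limma p of 0.0429 had an adjusted p of 0.172. Its share over all genes was not counted.

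Other protease inhibitors were measured to see the TIMPs among them. Their list also held Pcolce2 and its relative Pcolce, enhancers of procollagen processing rather than inhibitors, and the counts below include Pcolce2. Of 16 tested, 6 rose and 5 fell with IL-33/13/17A against untreated (8 and 4 after median-ratio scaling), 7 and 7 with IL-33/13, 6 and 5 with IL-33/17A (7 and 3), and 4 and 2 with IL-33 (5 and 1). Called were 68.8% of them with IL-33/13/17A (42.7% of all genes), 87.5% with IL-33/13 (49.6%), 68.8% with IL-33/17A (37.7%) and 37.5% with IL-33 (14.2%). Over all genes, 1755 rose and 4178 fell with IL-33/13/17A, and 2017 and 4870 with IL-33/13. The splits were 1486 and 3743 with IL-33/17A, and 822 and 1150 with IL-33. The list's median log2 change was 0.07 with IL-33/13/17A (all genes -0.10), 0.05 with IL-33/13 (-0.12), 0.09 with IL-33/17A (-0.09) and 0.03 with IL-33 (-0.05). Serpinb2, an inhibitor of plasminogen activators, averaged 192 ± 2.18 TPM with IL-33/13/17A and 3.91 ± 0.465 TPM in untreated cells, a log2 change of 5.30 (limma adjusted p = 1.13e-14). Tfpi2, a Kunitz-type inhibitor, rose with IL-13: it averaged 39.9 ± 5.16 TPM with IL-33/13/17A, 39.3 ± 0.772 with IL-33/13, 6.13 ± 0.826 with IL-33/17A, 6.43 ± 0.492 with IL-33 and 3.99 ± 0.708 TPM in untreated cells. Serpina3n, a serpin of the acute phase, rose by 2.67 with IL-33/13/17A and by 2.01 with IL-33/13, and was not called with IL-33/17A (0.19) or IL-33 (0.17). Slpi, the secretory leukocyte protease inhibitor, rose by 2.31 with IL-33/13/17A. Reck, a membrane-anchored MMP inhibitor, fell by 0.38 with IL-33/13/17A and by 0.61 with IL-33/13. With IL-33/17A it was at -0.22 (limma adjusted p = 0.0199), a call lost after median-ratio scaling (-0.12, adjusted p = 0.128) and by voom (-0.15, adjusted p = 0.0868).

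Between the cytokine conditions, IL-17A added to IL-33 raised 3 and lowered 2 of this list (5 and 1 after median-ratio scaling), and IL-13 added to IL-33 raised 5 and lowered 6. IL-17A added to IL-33/13 raised 3 and lowered 2, and IL-13 added to IL-33/17A raised 4 and lowered 3. Of all genes, 491 rose and 864 fell (9.76% called) for IL-17A on IL-33, or 717 and 628 after median-ratio scaling. For IL-13 on IL-33, 1395 and 3111 did (32.4%). For IL-17A on IL-33/13 it was 472 and 562 (7.45%), and for IL-13 on IL-33/17A 930 and 1269 (15.8%). Pcolce2, an enhancer of procollagen processing whose netrin-like domain resembles that of TIMPs, rose by 1.63 when IL-13 was added to IL-33 (2.50 by voom) and fell by 0.46 when IL-17A was added to IL-33/13. In the interaction, 0 of 16 were called by limma, and 9 had an unadjusted p under 0.05. Voom called 4, of which 2 were positive and 2 negative. Over all genes limma called 0.338%, and voom called 1402 of 13887. A low unadjusted p was common over all genes: for Slpi a limma p of 0.0304 had an adjusted p of 0.148. The all-gene share under 0.05 was not counted.

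Binding partners and receptors of TIMPs were the last list, with 15 tested genes, 3 of them (Mmp2, Mmp9 and Mmp14) also in the MMP list. Against untreated cells, 4 rose and 8 fell with IL-33/13/17A, 4 and 8 with IL-33/13 (6 and 7 by voom), 5 and 6 with IL-33/17A (7 and 6 after median-ratio scaling), and 4 and 3 with IL-33. The all-gene splits were 1755 and 4178 with IL-33/13/17A, 2017 and 4870 with IL-33/13, 1486 and 3743 with IL-33/17A, and 822 and 1150 with IL-33. The partners' median log2 change was -0.36 with IL-33/13/17A, -0.31 with IL-33/13, -0.11 with IL-33/17A and -0.06 with IL-33. Cd63, the tetraspanin partner of TIMP1, averaged 523.5 ± 15.004 TPM with IL-33/13/17A, 558 ± 17.7 with IL-33/13, 569 ± 49.3 with IL-33/17A, 507 ± 14.9 with IL-33 and 523 ± 1.91 TPM in untreated cells. It was not called on TPM in any of the 9 comparisons. After median-ratio scaling it was called higher for IL-33/13 against untreated (0.24), IL-33/17A against untreated (0.24) and IL-33/13 against IL-33 (0.23). Voom called these 3, IL-33/17A against IL-33 (0.22) and the interaction (-0.32). Lrp1, the endocytic receptor that clears TIMPs, fell by 0.43 with IL-33/13/17A and by 0.55 with IL-33/13, and was not called with IL-33/17A (-0.11) or IL-33 (-0.14). Itgb1, the integrin beta subunit, fell in all 4 conditions, by 0.74 with IL-33/13/17A, and so did Efemp1, a matrix protein that binds TIMP3, by 0.51. The heparan sulfate proteoglycan genes Sdc1 and Sdc4 rose in all 4, by 0.40 and 0.27 with IL-33/13/17A.

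With IL-17A added to IL-33, 2 of the partners rose and 3 fell, and IL-13 added to IL-33 raised 2 and lowered 6 (3 and 4 after median-ratio scaling). On IL-33/13, IL-17A raised 1 and lowered 2, and IL-13 added to IL-33/17A raised 0 and lowered 5. Of all genes, 491 rose and 864 fell (9.76% called) for IL-17A on IL-33. For IL-13 on IL-33, 1395 and 3111 did (32.4%), or 2307 and 2048 after median-ratio scaling. For IL-17A on IL-33/13 it was 472 and 562 (7.45%), and for IL-13 on IL-33/17A 930 and 1269 (15.8%). In the interaction, 0 of 15 were called by limma, and 7 had an unadjusted p under 0.05. Voom called 5, of which 2 were positive and 3 negative. Over all genes limma called 0.338%, and voom called 1402 of 13887. A low unadjusted p was common over all genes: for Mmp9 a limma p of 0.0256 had an adjusted p of 0.138. How common it was over all genes was not counted.

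The genes whose pattern was most like that of each TIMP gene were the 5 with the highest Pearson r of log2(TPM + 1) over the 15 libraries, among 13886 others. The points share their libraries and treatment groups, so the values describe likeness and carry no test. For Timp3 these were Myh11 (smooth muscle myosin, r = 0.998), Tns1 (tensin 1, 0.997), Actg2 (a smooth muscle actin, 0.996), Actn1 (alpha-actinin 1, 0.996) and Tgfb3 (a TGF-beta ligand, 0.996). Tgfb3 averaged 36.1 TPM with IL-33/13/17A and 184 TPM in untreated cells. For Timp3, 306 genes had an r over 0.95, against 33 for Timp1 and 4 for Timp2.

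For Timp1 the nearest were Gm13889 (r = 0.985), Igfbp4, a binding protein of insulin-like growth factors (0.981), Socs3, a feedback inhibitor of cytokine signalling (0.979), Hmga1b (0.977) and Cyth1 (0.974). Hmga1b has a near-identical copy, so its reads may be split. Socs3 averaged 885 TPM with IL-33/13/17A and 229 TPM in untreated cells. For Timp2 they were Clic4 (0.964), Galnt16, a glycosyltransferase (0.954), Svep1, a matrix protein (0.951), Adamts15 (0.9501) and Cryab, a small heat shock protein (0.944), and each of the 5 had its lowest mean with IL-33/17A, as Timp2 did. Between the members, r was -0.94 for Timp1 and Timp3, 0.63 for Timp2 and Timp3 and -0.45 for Timp1 and Timp2, over the same 15 libraries.

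**Figure D4:**
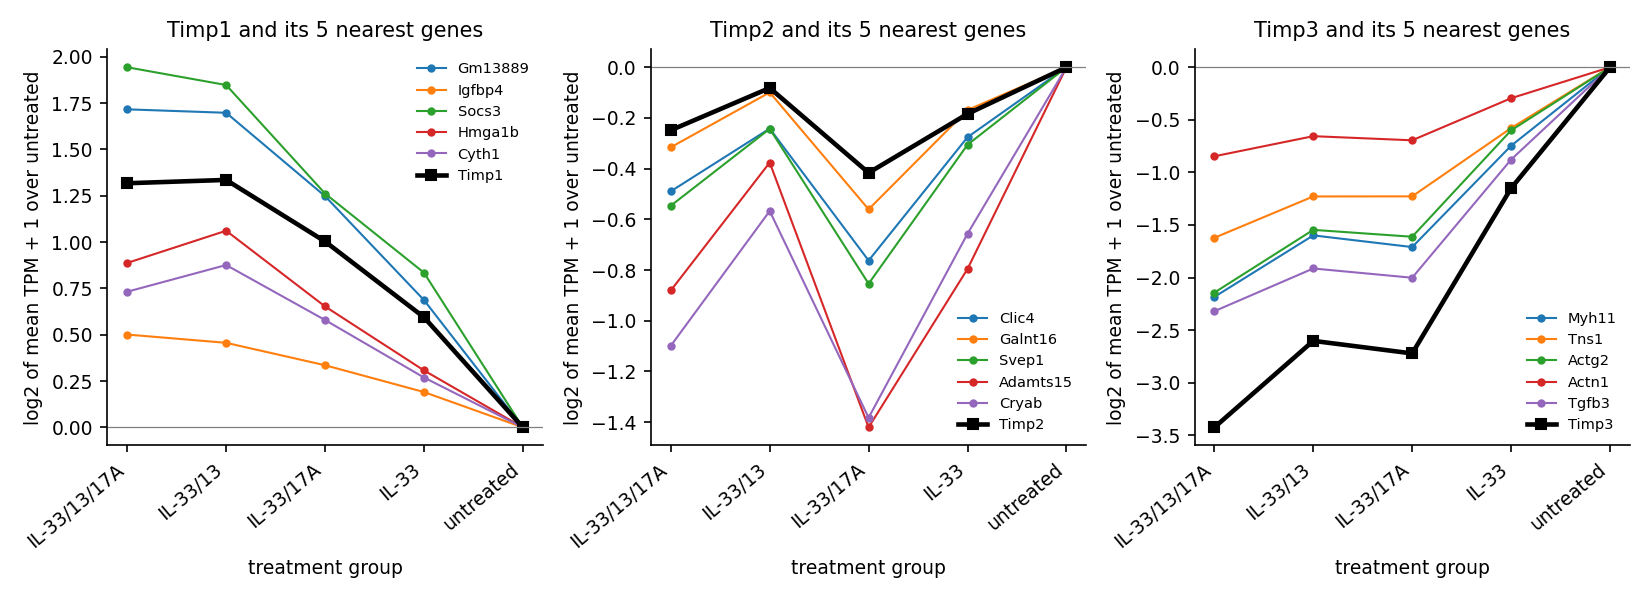
Log2 of the group mean of TPM + 1 relative to untreated cells (y axis) for each TIMP gene (black) and its 5 nearest genes (colours), by treatment group (x axis). Lines join group means of 3 libraries and carry no error. Timp3, at 32.8 TPM in IL-33/13/17A cells and 362 TPM in untreated cells, falls further than its 5 neighbours, while all Timp2 neighbours dip in IL-33/17A cells and come up again with IL-33/13.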

How the data were processed

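RNA was isolated with a Qiagen kit and sequenced on an Illumina NovaSeq, per the labels' protocols. The submitters' processing notes name HISAT2 and mm10, and the counting tool, its strand setting and its filters were not given in the sources used here. The deposited unit is TPM per Ensembl gene and library, computed by the authors. Groups came from the labelled treatment, and replicates were numbered in accession order. The members, lists, comparisons and naming rule (the 4 called list genes with the largest change per comparison, and a few fixed partners) were chosen with earlier results of these data known. limma 3.58.1 (R 4.3.3, trend and robust) was fitted to log2(TPM + 1) for the 13887 genes that reached 1 TPM in 3 or more libraries. The pseudocount of 1 understates changes of low genes. Reads were rebuilt as TPM times gene span over a library constant, with 1 read on 1 kb worth 0.733 to 1.14 TPM, for levels between genes and for voom, and mRNA lengths came from GENCODE vM21. Alternatives changed the pseudocount, filter, scaling, variance model, samples and set term. The voom fit and the fit inside the low mitochondrial set were added after seeing the data. Files were joined with Python 3.11.15, pandas 2.3.3 and numpy 2.4.6. The fit was tested on simulated data.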

Additional observations from a re-analysis of the deposited data

Results flagged for a closer look

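The effect of IL-17A on Timp3 differed between cells with and without IL-13, by a direct test of the difference: this interaction was 0.75 ± 0.08 on the log2 scale (SE, limma adjusted p = 0.00294), with IL-17A at -0.82 on IL-33/13 and at -1.57 on IL-33. All 3 IL-33/13/17A libraries, at 30.9 to 34.2 TPM, were still below every IL-33/13 library. With the term for the low mitochondrial set the value was 0.53 (adjusted p = 0.0734), and leaving out single libraries gave 0.70 to 0.82. What lies behind the difference was not tested.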

How the results depend on the processing

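Of 390 recomputed TIMP values, 368 stayed on their side of the threshold, 17 lost the call, 3 gained one and 2 reversed a called value. The 368 include values called in neither fit, which could change sign. The Timp2 interaction did so, from 0.07 to -0.02 at its lowest. For Timp3 the calls in the 8 pairwise comparisons held under every alternative run. Its interaction fell to 0.53 with the set term (adjusted p = 0.0734). The Timp2 change for IL-33/13 against untreated reversed to 0.070 with median-ratio scaling (adjusted p = 0.168) and to 0.056 by voom (adjusted p = 0.137). It was -0.081 and not called with only the compared groups (adjusted p = 0.0542) or without trend and robust options (adjusted p = 0.0693), -0.045 with the set term (adjusted p = 0.414), and -0.10 to -0.067 without single libraries. Other lost Timp2 calls were IL-33 against untreated with median-ratio scaling (-0.13), IL-33/17A against IL-33 outside the set (-0.20), IL-33/13/17A against IL-33/13 inside the set (-0.18), IL-33/13/17A against IL-33/17A with the compared groups (0.17), outside (0.14) and inside the set (0.17), and IL-33/13 against IL-33 without single libraries (0.087 to 0.12). With the set term Timp1 was 0.44 for IL-33/13 against IL-33, which lost its call, and 0.42 for IL-33/13/17A against IL-33/17A, which gained one. Without single libraries Timp1 was 0.31 to 0.52 for IL-33/17A against IL-33 and -0.54 to -0.33 in the interaction. Over all alternatives these values ran from 0.16 to 0.52 and from -0.54 to -0.02. The cause of these shifts was not tested.

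Counts of called genes moved more. With the set term they were 3452 (5229 as reported) for IL-33/17A against untreated, 3549 (6887) for IL-33/13 against untreated, 835 (1355) for IL-33/17A against IL-33, 1420 (4506) for IL-33/13 against IL-33, 566 (1034) for IL-33/13/17A against IL-33/13 and 2 (47) in the interaction. Only libraries outside the set gave 2139 for IL-33/17A against untreated, 316 for IL-33/17A against IL-33 and 839 (2199) for IL-33/13/17A against IL-33/17A. Only libraries inside it gave 193 for IL-33/13/17A against IL-33/13 and 594 for IL-33/13/17A against IL-33/17A. Fits of only the compared groups gave 520 for IL-33/17A against IL-33, 574 for IL-33/13/17A against IL-33/13 and 788 for IL-33/13/17A against IL-33/17A. By voom 1647 were called for IL-33/13/17A against IL-33/13 and 1402 in the interaction, where median-ratio scaling gave 96. Single libraries moved the count to 810 to 3057 for IL-33/17A against IL-33, the highest without IL-33/17A replicate 1, and to 492 to 1962 for IL-33/13/17A against IL-33/13, the highest without IL-33/13/17A replicate 1. They moved it to 1455 to 2548 for IL-33/13/17A against IL-33/17A and to 21 to 3038 in the interaction, with 3038 without IL-33/17A replicate 1 and 2281 without IL-33/13/17A replicate 1. The cause of these shifts was not tested. No paired analysis was possible because the labels give no replicate numbers.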
